A study of Rattus norvegicus with 20 samples.

Results

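Serotonin receptor genes were followed in the hypothalamic arcuate nucleus of 20 Sprague-Dawley rats, all labelled female. The receptors were chosen by name: Htr1a, Htr1b, Htr1d, Htr2a, Htr2c, Htr3a, Htr4, Htr5b, Htr6 and Htr7. Probes that were not control spots and whose gene name was 1 of these symbols numbered 14 of 30367 on the array, which stood for 10 of 25926 genes. After a filter on dim probes, 7 of the 10 receptor genes could be tested, among 17086 genes in all. The filter kept a probe if, in 1 condition or more, its spot exceeded background clearly in each of the 4 samples. Htr1a, Htr1b and Htr1d passed it through a single condition, BYS, and Htr4, Htr5b and Htr6 did not pass.

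All rats were killed on postnatal day 15, with 4 animals in each of 5 conditions. The SNS rats were exposed to saline on gestational day 15, had no spasms and received saline after birth. The BNS rats were exposed before birth to betamethasone, given to the dam on gestational day 15 as 2 injections of 0.4 mg/kg, had no spasms and received saline. The BYS, BYA and BYP rats shared the betamethasone exposure and were also injected with N-methyl-D-aspartic acid (NMDA) at postnatal day 12, day 13 and day 15 to trigger spasms. They were treated with saline (BYS), adrenocorticotropic hormone, ACTH (BYA), or PMX53, an antagonist of the complement receptor C5ar1 (BYP). Treatment began after the first NMDA injection and was given before the last one, and the sources used here differ on its days. The planned difference was betamethasone in BNS against SNS, and NMDA with its spasms in BYS against BNS. In BYA and BYP against BYS it was the treatment. The conditions also differ in slide, as given below. In the comparisons of BYS, BYA or BYP with SNS, betamethasone, NMDA and the treatment change together. This is a model of infantile spasms induced by a chemical trigger, and each channel held the RNA of 1 animal.

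Serotonin released from raphe axons acts on G-protein-coupled receptors and on 1 family of ion channels. The Htr1 and Htr5 receptors couple to Gi/o proteins and lower cyclic AMP, the Htr2 receptors couple to Gq/11 and phospholipase C, and Htr4, Htr6 and Htr7 couple to Gs and raise cyclic AMP. Htr3a encodes a subunit of the serotonin-gated cation channel. In the arcuate nucleus the system is known for its part in feeding: Htr2c on Pomc neurons and Htr1b on Agrp neurons are the receptors best studied there.

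Each probe was a single 60-base spot, so the level of a receptor rests on 1 or 2 spots per channel. The first 30 bases of the probes that carry the results are given below, each 5′ to 3′ and with its position on the rn4 genome named in the file headers; which of them lie in coding or untranslated sequence was not assigned here. For Htr2a, Htr2c and Htr7 the array held a pair of probes, called here upstream and downstream by where they start on their annotated transcripts (bases 1443 and 3236 for Htr2a, 1567 and 3885 for Htr2c, 1260 and 2604 for Htr7). They are shown because the members of a pair gave different answers.

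Htr2a upstream, chr15:55532171-55532230, plus strand: aaaccgtgaatgaaaaggttagctgtgtgt
Htr2a downstream, chr15:55533559-55533618, plus strand: accagttcgatttctttcttaactgattca
Htr2c upstream, chrX:31015679-31015738, minus strand: tctgggagggagctcaatgttaacatttat
Htr2c downstream, chrX:31013361-31013420, minus strand: acatagactataaaccatggagttcctaaa
Htr7 upstream, chr1:240145408-240145467, minus strand: taatccttttatatatgccttcttcaaccg
Htr7 downstream, chr1:240135108-240135167, minus strand: gcagaaagggttcctttgtggatagtatcc
Htr3a, chr8:52161175-52161234, minus strand: ttcttcttcagctcacttgtgggtacttcc

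The probes of the Htr1 family are shown next because they lie over related stretches of close paralogs. Capitals mark bases that Htr1a, Htr1b and Htr1d hold in common when Htr1a is set 9 bases along, 12 of the 21 bases that lie side by side.

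Htr1a, chr2:36435727-36435786, plus strand: AAcaAaGACTTtcaAaAcGCttttaagaag
Htr1b, chr8:86700094-86700153, minus strand: accatgtccAAtgAgGACTTcaaAcAaGCa
Htr1d, chr5:155189728-155189787, plus strand: actgtgttcAAcgAaGACTTtcgAcAaGCg

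Over the whole probes, without gaps, Htr1a and Htr1d were identical at 29 of 51 bases, Htr1b and Htr1d at 33 of 60, and Htr1a and Htr1b at 27 of 51. The longest unbroken run that any of the 14 receptor probes shared with another probe of the array was 12 to 14 bases.

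The first question was which receptors were measured at all. The extraction software flags a spot as well above background in each channel. The downstream Htr2c probe, the Htr3a probe and the downstream Htr7 probe carried this flag in 20 of 20 samples. The downstream and upstream Htr2a probes carried it in 18 and 17 samples, and the upstream Htr7 probe in 14. These were the receptors with a measured level in every condition.

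The Htr1 family was near the limit of the array. Htr1a was flagged in 8 samples, Htr1b in 10 and Htr1d in 10. For each of the 3 genes, all 4 BYS samples were flagged and at most 2 samples of any other condition. Htr1b, the terminal autoreceptor that also sits on non-serotonergic axons, was not well above background in any SNS sample. Among the receptors that could not be tested, Htr5b was flagged in 7 samples and Htr6, a Gs-coupled receptor, in 11. Each of the Htr4 probes was flagged in 2 samples, all of them BYS. The upstream Htr2c probe was flagged in 5 samples, 3 of BYS and 2 of BNS.

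**Figure D1:**
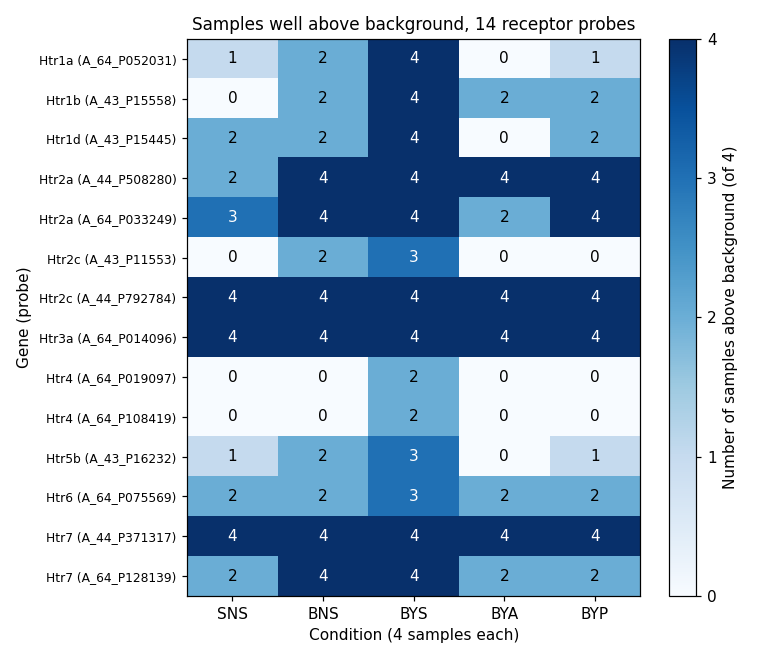
Number of samples, of 4 per condition, in which each of the 14 receptor probes was well above background. Rows are probes with their gene, columns are the 5 conditions. The Htr3a probe and the downstream Htr2c (A_44_P792784) and Htr7 (A_44_P371317) probes reached 4 in every condition, and no probe was flagged in more samples of another condition than of BYS.

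These flags moved with signal strength and with dye. The median over spots of signal divided by local background ranged from 5.66 to 11.3 in the SNS samples and from 13.9 to 19.9 in BNS and BYS, with BYA (6.6 to 10.4) and BYP (7.02 to 10.9) near SNS. Htr1a, Htr1b and Htr1d were each flagged in 2 of 10 Cy3 channels and in 6, 8 and 8 of 10 Cy5 channels. Each condition was hybridised on a slide of its own, and BYA replicate 3 on a further one, so condition and slide cannot be told apart. BYA replicates 3 and 4 each shared an array with a male rat of another series. For BYA replicate 3 the labelled dye and the order of animals in the deposited array name disagree. The labelled channel was used, so the values given for this replicate may be those of the male, whose name in the array carries the code SNS. Without BYA replicate 3 the genes called rose from 0 to 26 in BYA against BYS, from 20 to 171 in BYA against BNS and from 27 to 265 in BYP against BYA, with 0 receptors among them, and in BYA against SNS the receptor calls fell from 1 to 0. The share of all genes called was 28.6% for BNS against SNS and 0.0293% for BYS against BNS, and every receptor call below is to be read against such shares. Values of the never-detected probes bear on the dim receptors: over 4762 probes flagged in none of the 20 samples, the median log2 difference from SNS lay between -0.06 (BYS) and -0.01 (BYA). Levels below are quantile-normalised log2 intensities, and differences are log2 differences of those levels fitted with dye as a covariate.

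No tested receptor passed the threshold where betamethasone was the planned difference. In BNS against SNS, 0 of 7 receptor genes passed an adjusted p of 0.05 in limma, where 28.6% of all genes did, and 1 of 7 had an unadjusted p below that value. The 7 differences had a median of -0.20, from -0.22 for Htr2a to 0.26 for Htr1b, beside a median of -0.04 over all genes. The receptor with the lowest p was Htr1b (log2 difference 0.26, SE 0.11, adjusted p = 0.088 in limma), which is described with its sample values below.

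NMDA with its spasms was not followed by a detectable receptor change. In BYS against BNS, 0 of 7 receptors were called and none had an unadjusted p below 0.05 in limma. All genes were called at 0.0293%, so this comparison gave few calls anywhere. The receptor differences ran from -0.01 for Htr7 to 0.17 for Htr1a. For Htr2c the difference was 0.00 with a 95% interval from -0.36 to 0.36, so a change of up to 0.36 in either direction fits within the interval. The interval was narrower for Htr1b, from -0.11 to 0.36.

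Neither treatment gave a receptor call against BYS. ACTH (BYA against BYS) gave 0 calls of 7, beside 0% of all genes, and 0 receptors at an unadjusted p under 0.05 in limma. The methods' t-test, without adjustment, passed 1 receptor, Htr3a (log2 difference -0.32), among 1081 of 17086 genes. All 7 fitted differences were below 0, from -0.32 for Htr3a to -0.06 for Htr7. PMX53 (BYP against BYS) gave 0 calls of 7, beside 0.0351% of all genes, and 1 receptor, Htr2c, at an unadjusted p under 0.05 in limma. Again all 7 fitted differences were below 0, from -0.37 for Htr2c to -0.04 for Htr1d. The 2 treatments were compared with the same 4 BYS rats, so these signs are not separate evidence. With each channel scaled to a common median instead of quantile-normalised, BYP against BYS gave 3 receptor calls, Htr2c at -0.90, Htr3a at -0.63 and Htr1b at 0.80, the last in the opposite direction. That setting called 2820 of 17086 genes in this comparison, beside 6 with quantile normalisation.

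The remaining comparisons that leave out SNS were as sparse. BYA against BNS gave 0 receptor calls of 7 beside 0.117% of all genes, with 0 receptors at an unadjusted p under 0.05. BYP against BNS gave 0 of 7 beside 1.5%, with Htr2c the receptor under an unadjusted p of 0.05 (log2 difference -0.37, adjusted p = 0.27 in limma), where the groups did not overlap, as in 13.4% of all genes. BYP against BYA gave 0 of 7 beside 0.158% in limma, 0 at an unadjusted p under 0.05, and 1 by the methods' t-test without adjustment (Htr7, log2 difference -0.13), which passed 1480 of 17086 genes there.

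All 4 receptor calls, of 70 receptor tests, came from comparisons with SNS. BYS against SNS gave 1 of 7 beside 27.1% of all genes, BYA against SNS 1 of 7 beside 31.3%, and BYP against SNS 2 of 7 beside 28.9%. The receptor counts were thus no higher than the shares over all genes. The comparisons with SNS use the same 4 SNS samples, and Htr1b, Htr2a and Htr2c were the receptors called. Htr1b passed the filter only through BYS, so its calls are no independent evidence of a change.

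**Figure D2:**
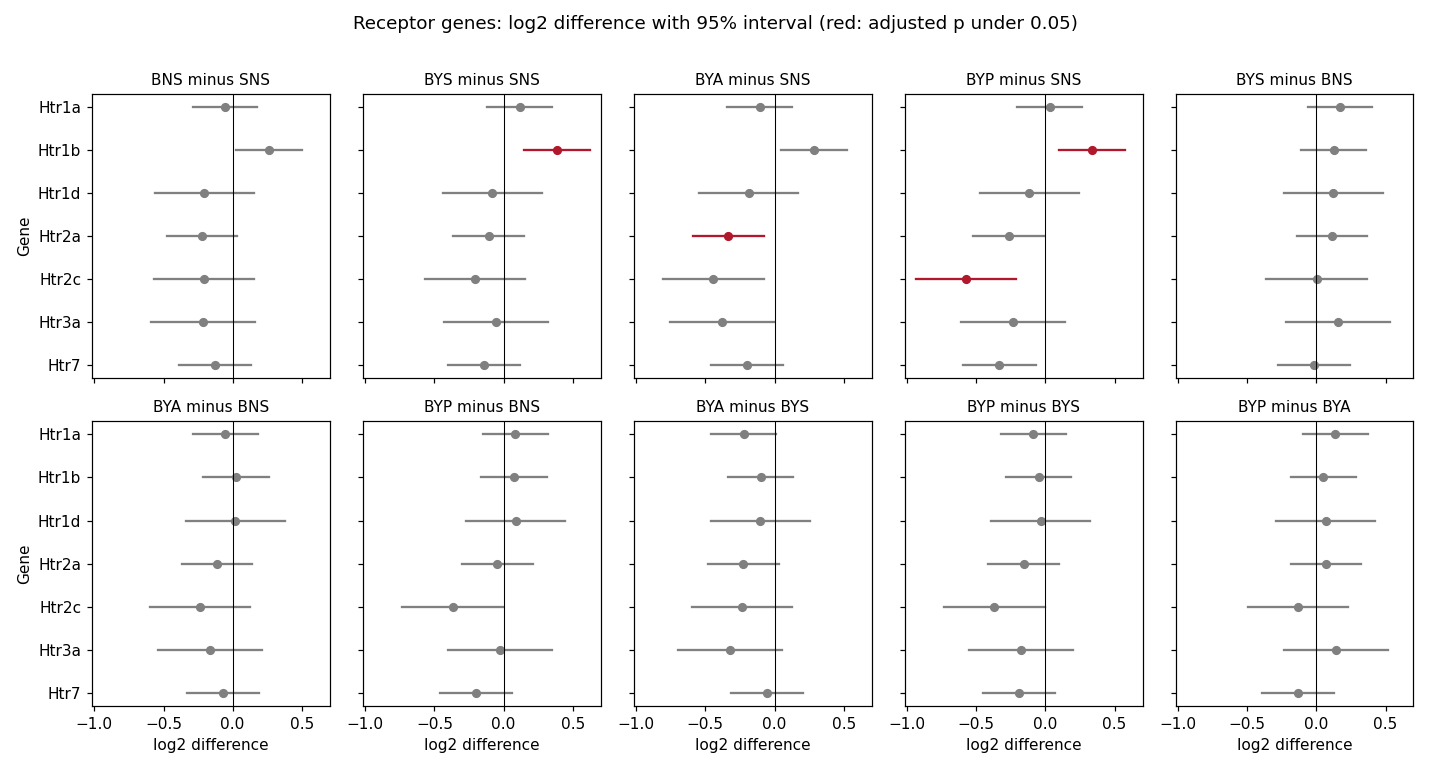
Log2 difference (x axis) of the 7 tested receptor genes in the 10 comparisons between conditions, with the 95% interval of the fit; red marks an adjusted p under 0.05. The 4 red points lie in 3 panels with SNS (BYS, BYA and BYP minus SNS), and most intervals of the other panels span 0.

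Htr2c, the Gq-coupled receptor through which serotonin excites Pomc neurons, was lower in BYP than in SNS. Its tested level comes from the downstream probe, since the upstream one did not pass the filter. In SNS the log2 levels of Htr2c were 12.00, 12.15, 12.31 and 12.29 in replicates 1 to 4. In BYP they were 11.82, 11.24, 11.46 and 11.92. All BYP samples lay below all SNS samples, which was the case for 2 of the 7 receptors in that comparison when either direction is counted, beside 26.6% of all genes. The difference was -0.58 (SE 0.17, 95% interval -0.94 to -0.21; adjusted p = 0.019 in limma), a level 0.671 times that of SNS.

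In BNS the Htr2c levels were 12.01, 11.94, 11.93 and 12.04. In BYS they were 11.99, 12.30, 12.04 and 11.59. In BYA they were 11.39, 12.22, 11.63 and 11.74. The order of the means was SNS 12.19 ± 0.14, BYS 11.98 ± 0.29, BNS 11.98 ± 0.05, BYA 11.74 ± 0.35 and BYP 11.61 ± 0.31 (SD, n = 4 each), and no neighbours in that order differed past the threshold. BYA lay below SNS by 0.44, which just missed the threshold (adjusted p = 0.060), with BYA replicate 2 inside the SNS range. BYP against BYS was -0.37 (95% interval -0.73 to -0.01; adjusted p = 0.58).

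The BYP call for Htr2c was lost when SNS replicate 3, BYP replicate 2 or BYP replicate 3 was left out (adjusted p = 0.053, 0.076 and 0.051 in limma). It was also lost with the array as a random block (adjusted p = 0.10). When the upstream probe was averaged in by testing without the filter, the difference shrank to -0.13. That probe read 7.24 ± 0.07 in SNS, where it was flagged in no sample, and 7.55 ± 0.13 in BYP, also flagged in no sample.

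Htr2c is also abundant in choroid plexus, so markers of that tissue are given beside it. Of 10 choroid plexus genes, 4 passed the filter. Their mean log2 level ranged from 9.57 to 9.93 in SNS and from 8.98 to 9.42 in BYP, and in BNS, BYS and BYA it reached at most 9.56. Beside this, the share of single genes without overlap with SNS was 32.5% for BNS, 27.2% for BYS and 26.6% for BYP. Ttr, transthyretin, the most abundant choroid plexus transcript, was at 11.01 in SNS, 9.88 in BNS, 10.09 in BYS, 10.60 in BYA and 9.74 in BYP, and its BYP difference of -1.27 did not pass (adjusted p = 0.058 in limma). Folr1, a folate receptor of the plexus, was lower in BYA than in SNS (log2 difference -0.865, adjusted p = 0.017 in limma). Aqp1, a water channel, went the other way and was called higher in BNS, with a mean of 7.66 in SNS and 7.88 in BNS. It was dim, above background in 1 SNS and 3 BNS samples, and passed the filter only through BYS. Kcnj13, Slc4a5, Clic6 and F5 were flagged in no SNS sample, Sostdc1 in 1 and Kl in 2. In BYP, Kcnj13, Clic6, Sostdc1 and Kl were each flagged in 2 samples and Slc4a5 and F5 in none, and in BYS all 6 were flagged in 2 or 3. The part of choroid plexus in the Htr2c result was not tested, and in bulk tissue fewer cells of a type and less RNA per cell cannot be told apart.

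**Figure D3:**
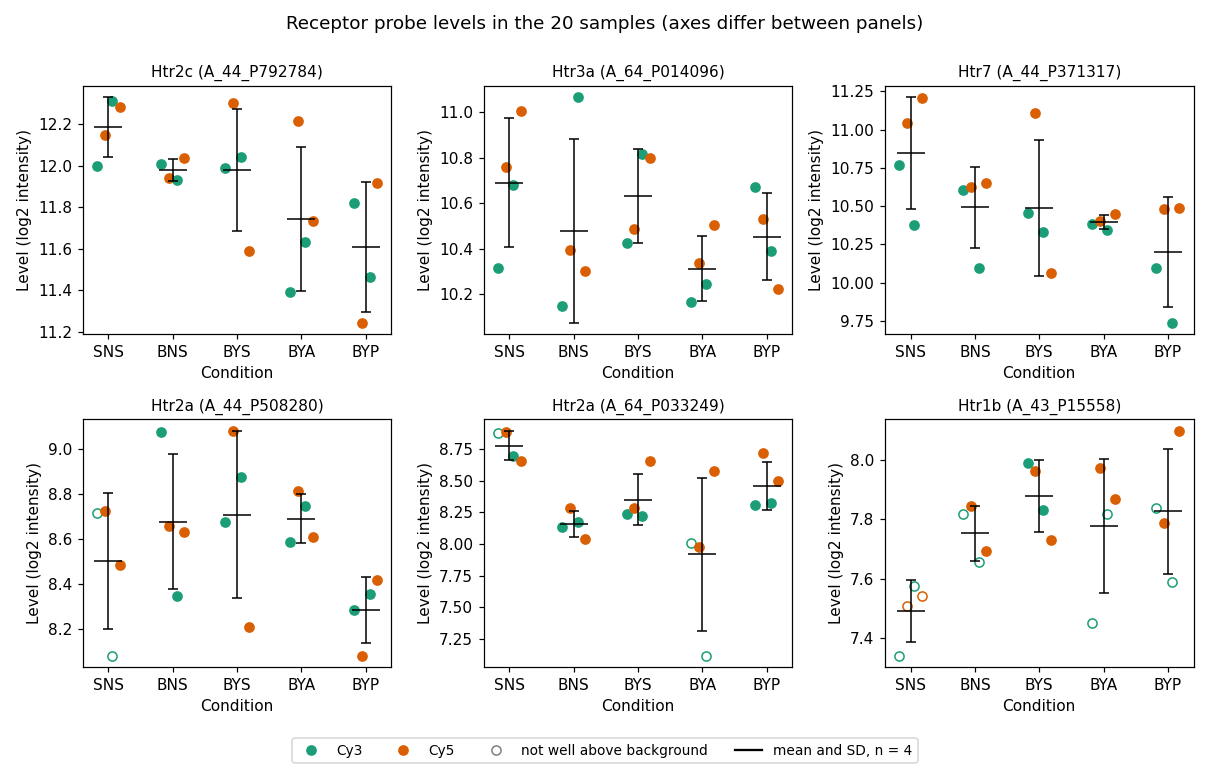
Log2 intensity of 6 receptor probes in the 20 samples (y axis, range set per panel), by condition; green points are Cy3 and orange points Cy5 channels, open points are not well above background, and bars give the mean and SD of 4 samples. The BYP points of Htr2c lie below all SNS points, the pair of Htr2a probes show different orders of the conditions, and the SNS points of Htr1b are open.

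Htr1b entered the test only through BYS, the condition where it was highest, so its calls against SNS are no independent evidence of a change and are given as values. The SNS samples read 7.34, 7.51, 7.58 and 7.54, all not well above background, so the SNS level is uncertain. The BYS samples read 7.99, 7.96, 7.83 and 7.73, all above background and all above the SNS samples, a separation seen in 27.2% of all genes. The fitted BYS level was 1.31 times that of SNS (log2 difference 0.39, SE 0.11, adjusted p = 0.018 in limma). The 95% interval of the log2 difference ran from 0.15 to 0.62. That fold is taken from the mean levels of the groups on this scale, with SNS as read, and is no lower bound. It does not cover the spread between samples or the normalisation.

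The BYP samples of Htr1b read 7.84, 7.79, 7.59 and 8.10, of which 2, the Cy5 channels, were above background. The BYP value stood above that of SNS by a log2 difference of 0.34 (adjusted p = 0.033), with no fold given since both groups held unmeasured samples. The BNS samples read 7.82, 7.85, 7.66 and 7.69 and the BYA samples 7.45, 7.97, 7.82 and 7.87. BNS did not overlap SNS, as in 32.5% of all genes, but missed the threshold, and BYA overlapped it at replicate 1 (log2 difference 0.29, adjusted p = 0.060). The fitted difference of Htr1b from SNS was above 0 in all 4 betamethasone-exposed conditions, from 0.26 to 0.39, with the same SNS animals on the other side each time.

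The Htr1b calls were not stable. Leaving out 1 of 8 samples in turn ended the BYS call once and the BYP call 5 times. Without BYS replicate 1 the BYS difference was 0.33 (adjusted p = 0.064), and without BYP replicate 4 the BYP difference was 0.26 (adjusted p = 0.11). With scaling to the median the BYS difference was 0.12 (adjusted p = 0.81). With the software's own processed signals it was 1.00 and uncalled (adjusted p = 0.23). With the array as a random block neither was called (adjusted p = 0.089 for BYS and 0.13 for BYP).

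Htr2a, the Gq-coupled receptor of cortex and hypothalamus, was lower in BYA than in SNS as a mean of its probes (log2 difference -0.33, SE 0.12, adjusted p = 0.044 in limma). With the array as a random block, since both channels of most arrays held 1 condition, the call was lost (adjusted p = 0.089). The probes did not move together. On the upstream probe the SNS samples read 8.87, 8.88, 8.70 and 8.66 and the BYA samples 8.01, 7.98, 7.12 and 8.58. The BYA samples in Cy3 (replicates 1 and 3) and SNS replicate 1 were not above background, so the size of the difference is uncertain. The upstream difference was -0.86 (SE 0.18, adjusted p = 0.0021 over all probes in limma, where 31.9% of probes were called).

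On the downstream Htr2a probe the SNS samples read 8.72, 8.73, 8.08 and 8.48 and the BYA samples 8.59, 8.81, 8.75 and 8.61. The groups overlapped and the difference was 0.19 (95% interval -0.19 to 0.57). The upstream probe was also lower in BNS than in SNS (-0.62, adjusted p = 0.018 over all probes, of which 28.7% were called), with BNS at 8.14, 8.29, 8.17 and 8.04, while the downstream probe differed by 0.18. That BNS call of the upstream probe held in 6 of 8 fits with a sample left out (adjusted p up to 0.064 in limma). Across the 20 samples the probes had a Pearson r of -0.39 after removal of dye, as a description of points that share slides. The probes start 1388 bases apart on the genome and are annotated to different transcripts.

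For the gene mean of Htr2a, 5 of 8 samples decided the BYA call when left out in turn, and the adjusted p ranged from 0.022 to 0.15. The library labelled BYA replicate 3, whose channel is in doubt, held the lowest value of the upstream probe. Without it the gene difference was -0.22 (adjusted p = 0.15). The upstream probe by itself, tested among single probes, stayed past the threshold in 8 of 8 such fits, and without BYA replicate 3 its difference was -0.62 (adjusted p = 0.0032).

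Htr7, the Gs-coupled receptor of the hypothalamus and suprachiasmatic nucleus, was not called as a gene (BYP against SNS -0.33, adjusted p = 0.051 in limma), but its probes again differed. The downstream probe read 10.77, 11.04, 10.37 and 11.21 in SNS. In BYP it read 10.09, 10.48, 9.74 and 10.49, with an overlap at SNS replicate 3. The difference of that probe was -0.65 (SE 0.18, adjusted p = 0.013 over all probes, of which 29.2% were called), and it stayed past the threshold in 8 of 8 fits with a sample left out.

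The downstream Htr7 probe was lower than in SNS by 0.35 in BNS, 0.36 in BYS and 0.45 in BYA, none of them called. The upstream Htr7 probe was dim. It read 7.83 ± 0.23 in SNS and 7.81 ± 0.14 in BYP (SD, n = 4 each), a difference of -0.02 (95% interval -0.25 to 0.21). The gene value is the mean of both probes.

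Htr3a, the channel subunit, rests on 1 bright probe. In SNS it read 10.32, 10.76, 10.68 and 11.004. In BYA it read 10.17, 10.33, 10.24 and 10.50, the lowest mean of the conditions. The BYA difference was -0.38 with a 95% interval from -0.76 to 0.00 (adjusted p = 0.12), and the groups overlapped. BNS held both the lowest and the highest value of all 20 samples, 10.15 in replicate 1 and 11.07 in replicate 3, and without BNS replicate 3 the BNS difference from SNS was -0.43 and passed (adjusted p = 0.042).

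Htr1a, the somatodendritic autoreceptor, and Htr1d, a close relative of Htr1b, gave no call in any of the 10 comparisons. Htr1a ranged from 7.48 to 8.01 over the 20 samples, with the highest values in BYS replicates 1 and 2, which share an array (7.97 and 8.01), against 7.56 and 7.52 in replicates 3 and 4. Htr1d had its widest spread in SNS, from 7.28 in replicate 3 to 8.38 in replicate 1, both Cy3 channels and both not above background. Without SNS replicate 3, Htr1d was called lower in BNS (-0.41, adjusted p = 0.038) and in BYA (-0.40, adjusted p = 0.043) than in SNS.

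The receptors that were not tested stayed within a narrow range. The mean log2 levels of Htr5b lay between 7.52 (BYA) and 7.67 (BNS and BYS). Htr6 lay between 7.52 (BYP) and 7.81 (BYA), and BYA replicate 1 was its highest sample at 8.07 without being above background. The Htr4 probes lay between 7.31 and 7.56 and between 7.27 and 7.60, and they sit on different transcript isoforms, 40803 bases apart on the genome. No fold is given for these genes. Of 4 further receptor genes on the array, Htr1f and Htr3b were flagged in no sample, Htr2b in 1 and Htr5a in 5.

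By the fixed rule, the genes most like each receptor over the 20 samples were listed by Pearson r among 16298 genes without missing values, after removal of dye. For Htr2c the nearest named gene was Brox (r = 0.94), for Htr7 Uqcrfs1 (0.89), for Htr1d Ebf1 (0.88), for Htr1b Ogg1 (0.84), for Htr1a Kcnk7 (0.80) and for Htr3a Fam189a2 (0.75). For Htr2a it was a predicted gene, RGD1564420 (0.82). Among the receptors themselves the highest values were 0.62 for Htr2c with Htr7 and 0.51 for Htr2a with Htr7. The points share slides and conditions, so these values describe the 20 samples and no more.

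The supply of serotonin was followed with a list of synthesis, storage, uptake and breakdown genes, 13 of 16 of which passed the filter. Gch1, which makes the cofactor of tryptophan hydroxylase, rose in each of the 4 comparisons with SNS, by 0.85 (BYA) to 1.44 (BYP) on the log2 scale. Qdpr, which regenerates that cofactor, rose in all 4 by 0.52 to 0.66. Both serve dopamine synthesis as well. Aanat, the enzyme that acetylates serotonin, rose in BNS, BYS and BYA by 0.57 to 0.68. The Aanat probe was above background in 2 of 4 SNS samples and passed the filter only through BNS and BYS. The size of its rise is thus uncertain, and the software's processed signals gave 1.40 to 1.57. Asmt, the last step to melatonin, fell in all 4 on this scale, by 0.39 to 0.49. Its probe passed the filter only through BYS and was above background in 1 of 4 SNS samples, and with the software's processed signals the sign turned for BYA and BYP and with median scaling for BYP; Qdpr also turned sign for BYP with median scaling.

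Of these 13 genes, 5 were called in BNS, 4 in BYS, 6 in BYA and 4 in BYP against SNS (38.5%, 30.8%, 46.2% and 30.8%), beside the 27.1% to 31.3% of all genes. Their medians were -0.17, -0.03, -0.14 and -0.11. Maoa, Maob and the vesicular transporter Slc18a2 were not called in any comparison. Tph2, the tryptophan hydroxylase of neurons, and the serotonin transporter Slc6a4 did not pass the filter, as neither did Slc18a1.

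Of the Gs list, 13 of 15 genes passed the filter. Gnal, the Golf alpha subunit, rose in all 4 comparisons with SNS by 0.86 to 1.05. Prkaca, a catalytic subunit of protein kinase A, rose in all 4 by 0.69 to 0.79. Prkacb rose in BYS, BYA and BYP by 1.01 to 1.36. Under 3 other scalings (a common median, loess and the software's processed signals) Prkacb was called 1, 2 and 3 times, respectively. Gnas fell in BYA by 0.50 and was called under 1 of these scalings. The calls numbered 4, 3, 4 and 3 of 13 for BNS, BYS, BYA and BYP (30.8%, 23.1%, 30.8% and 23.1%). Over all genes the shares were 28.6%, 27.1%, 31.3% and 28.9%.

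Of 11 Gq/11 genes tested, 2 were called in each of the 4 comparisons (18.2%), beside 27.1% to 31.3% of all genes. Plcb1, the phospholipase C of this pathway, rose in all 4 by 0.41 to 0.61, and Itpr2, an inositol trisphosphate receptor, rose in BYS, BYA and BYP by 0.42 to 0.64. Of 9 Gi/o genes, 2, 1, 1 and 2 were called (22.2%, 11.1%, 11.1% and 22.2%), each below the share of all genes. Kcnj6, a GIRK channel subunit opened by Gi/o, rose in BNS, BYS and BYP by 0.47 to 0.57. In each of these comparisons Kcnj6 was called under 1 of the 3 other scalings. Gnai3 fell in BYA and BYP by 0.50 and 0.39, with a sign that turned under the processed signals.

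Genes that edit, anchor or desensitise receptors gave 4, 2, 2 and 2 calls of 13 (30.8%, 15.4%, 15.4% and 15.4%). The shares of all genes were 28.6%, 27.1%, 31.3% and 28.9%. Mpdz, a scaffold that binds the tail of Htr2c, rose in all 4 by 0.30 to 0.55. Under the 3 other scalings Mpdz was called 3 times in BYS and 1 time in each of BNS, BYA and BYP. S100a10, the p11 protein that carries Htr1b to the membrane, rose in BNS, BYS and BYP by 0.82 to 0.98. In each of these comparisons S100a10 was called under 1 of the 3 other scalings. Adar and Adarb1, which edit the Htr2c transcript, were not called.

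Over the 59 tested genes of these lists, the calls against SNS numbered 17 in BNS, 12 in BYS, 15 in BYA and 13 in BYP. These were 28.8%, 20.3%, 25.4% and 22%, beside 28.6%, 27.1%, 31.3% and 28.9% of all genes. Of the list calls, 10, 11, 11 and 10 were higher. Of all genes called, 2585 of 4881, 2483 of 4634, 2705 of 5343 and 2640 of 4940 were higher. In the 6 comparisons without SNS none of the 59 genes was called in limma. In all 25 genes were called at least once and 7 in all 4 comparisons, 6 higher and 1 lower. Of the 7, Qdpr (higher) and Asmt (lower) changed sign in at least 1 comparison under another scaling. The 4 comparisons share the SNS samples, so the count of 7 is a description.

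**Figure D4:**
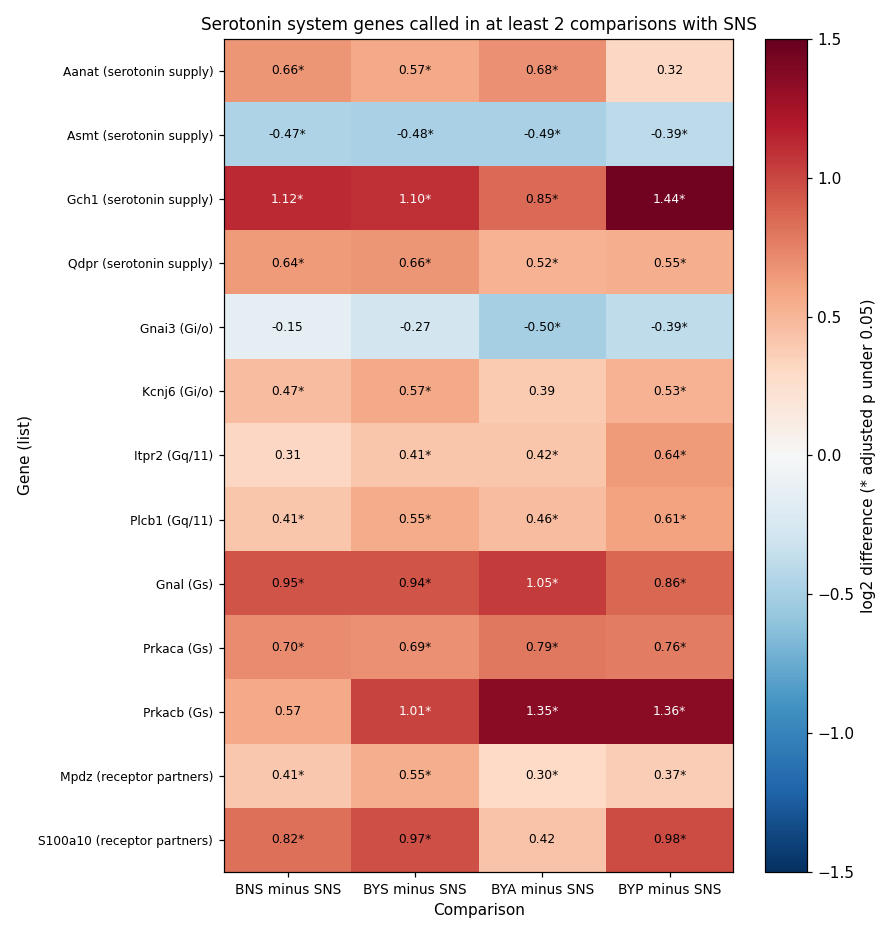
Log2 differences of the 13 genes of the serotonin system lists called in at least 2 comparisons with SNS (rows, with the list) in the 4 comparisons with SNS (columns); asterisks mark an adjusted p under 0.05. Gch1, Qdpr, Gnal, Prkaca, Plcb1 and Mpdz are higher and Asmt lower with an asterisk in all 4 columns.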

How the data were processed

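Total RNA of the arcuate nucleus was labelled with Cy3 or Cy5 and hybridised to Agilent rat arrays so that both channels of 9 of 11 arrays held rats of 1 condition. The deposited files hold, per spot and channel, mean signal and local background intensity as scanned, the processed signal intensity (background-subtracted and dye-normalised by Agilent Feature Extraction, version 10.7.3.1 per the submitters' processing notes; the file headers name another version) and other columns of flags, per the file headers. The 82 columns of animals of another series were not used. Here the mean signals were background-corrected (normexp, offset 50), log2-transformed and quantile-normalised over 20 channels without control spots. Spots with an outlier flag (1.18%) were left out, spots of a probe averaged and 19883 of 30367 probes kept. Genes were the mean of their kept probes (17086). Limma 3.58.1 in R 4.3.3 fitted 5 conditions and dye to 20 samples, with 10 comparisons and Benjamini-Hochberg adjustment over all genes at 0.05. The test was tried on simulated data. The litter of each animal is not given in the sources used here. The limma p-values rest on the spread within conditions, estimated over all 5 conditions of 4 samples each. The number of arrays limits the precision. No file gives counts.

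The receptors and gene lists were chosen with earlier results of these data known. The genes named are taken from the 10 receptors, 6 serotonin system lists and 11 lists of cell type markers, and per receptor the 2 genes with the highest correlation. Each alternative of the closing section changed 1 choice, except that loess also left out BYA replicates 3 and 4 and the methods' t-test was run with and without adjustment. The values of 1 list gene are not reported here.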

Additional observations from a re-analysis of the deposited data

How the results depend on the processing

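Of the 70 receptor differences under all alternatives, 1474 values kept their side of the threshold, 34 lost it, 31 gained it and 1 passed it in the opposite direction. The last was Htr1b in BYP against BYS, at 0.801 when channels were brought to a common median. That scaling gave 3 receptor calls in BYP against BYS, where 2820 of 17086 genes were called, and 0 in BYS and in BYA against SNS. It moved the median of all genes by up to -0.172 (BYP against BYS), and the genes higher and lower from 2585 and 2296 to 791 and 1865 in BNS, from 2483 and 2151 to 955 and 492 in BYS, from 2705 and 2638 to 999 and 402 in BYA, and from 2640 and 2300 to 1583 and 3317 in BYP against SNS. With the processed signals the receptor calls were 0 in BYS and 1 in BYP against SNS. With the array as a random block (correlation 0.365) they were 0 in BYS, BYA and BYP, as with the methods' t-test after Benjamini-Hochberg adjustment. With the slide as a random block (correlation -0.128) they were 1 in BNS, 4 in BYA and 4 in BYP, where 8157, 7785 and 8135 of 17083 genes were called. Only BYA was on more than 1 slide, so that fit cannot separate slide from condition. The methods' t-test without adjustment, and their combined criterion, each gave 1 in BNS against SNS, 1 in BYA against BYS and 1 in BYP against BYA. In BYA against SNS, loess, no dye covariate and only the samples compared each gave 0, and a normexp offset of 16 gave 2. Probes tested singly gave 1 in BNS, and no filter on dim probes 1 in BYP. When samples were left out in turn, the comparisons with SNS gave between 0 and 1 calls for BNS and for BYS, between 0 and 3 for BYA, and 1 or 2 for BYP. All genes called in BNS against SNS numbered 4881, and 2656 with median scaling, 2342 with processed signals and 2595 with the array block. The causes of these shifts were not tested.

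Replicate numbers are shared between conditions, but deviations of same-numbered samples had a mean correlation of 0.0031 (from -0.239 to 0.28 over 40 pairs), so the numbers do not pair the samples. With the replicate number as a block the receptor calls were 1 in BYS, 1 in BYA and 2 in BYP against SNS and 0 in BNS. Signal near background limits Htr1a, Htr1b, Htr1d and the upstream probes.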

Other observations

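Of the arcuate nucleus list, Agrp, Npy, Pomc, Sst and Cartpt were above background in all 20 samples. They lay between 13.21 and 15.19 on the log2 scale in the means of the 5 conditions. All 13 of 13 arcuate genes passed the filter, but Slc6a3 was dim. It was above background in 1 SNS, 3 BNS, 4 BYS, 2 BYA and 2 BYP samples. Nr5a1 and Fezf1, of the ventromedial hypothalamus list, were also above background in all 20 samples, and the dimmer Sox14 was not. Of 5 markers of serotonergic raphe neurons, 1 passed, Lmx1b, which is also made outside the raphe; Fev was flagged in no sample, Slc6a4 in 1 (BYS), Gata3 in 1 each of BNS, BYS and BYP, and Tph2 in 2 of BNS, 3 of BYS and 1 of BYP.

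The marker lists of neighbouring tissues gave few calls in the comparisons without SNS: 1 of the 3 red blood cell genes measured was called lower in BYP than in BNS, and no other marker was called there. Against SNS the counts of calls in BNS, BYS, BYA and BYP were 1, 2, 1 and 0 of 13 arcuate genes, 1, 0, 1 and 0 of 4 choroid plexus genes, 1, 1, 2 and 2 of 5 ependymal and tanycyte genes, 0, 0, 1 and 0 of 6 oligodendrocyte genes, 1, 2, 0 and 1 of 6 microglial genes, 2, 2, 2 and 0 of 3 red blood cell genes, 1, 1, 2 and 2 of 4 thalamic genes, and 0, 2, 1 and 1 of 3 forebrain genes. None was called among 3 ventromedial hypothalamic genes, 2 pituitary genes and Lmx1b. The shares of all genes called in BNS, BYS, BYA and BYP against SNS were 28.6%, 27.1%, 31.3% and 28.9%. The mean log2 level of the microglial genes ranged from 11.07 to 11.22 in SNS and from 10.89 to 10.99 in BNS. Beside this, 32.5% of single genes had no overlap between BNS and SNS. Red blood cell genes ranged from 13.67 to 13.97 in SNS and from 13.90 to 14.66 in BNS.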
